A study of Homo sapiens with 2 samples.

Results

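The SLC25A genes encode mitochondrial carriers, and their members on the array were taken as all probes whose platform gene symbol begins with SLC25A and a digit. This gave 70 probes of 48 genes, among 30113 probes of 20046 named genes on an array of 47322 probes. Of the 48 genes, 45 are carriers and 3 are pseudogenes or an antisense gene (SLC25A3P1, SLC25A51P4 and SLC25A21-AS1). RNA came from cells of the human leukaemia line labelled Jurkat, kept for 24 hours with Me6TREN, a polyamine used as a ligand of metal ions, or with phosphate-buffered saline (PBS). Both cultures grew in the same serum-containing medium, and the dose of Me6TREN is not given in the sources used here. Each group had 1 Illumina HT12 array, so the values carry no replicate error, no test was possible, and each ratio compares 1 array with 1 other.

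Carriers of this family sit in the inner mitochondrial membrane, with a few in other membranes, and exchange metabolites between the cytosol and the matrix. Each is built from a repeated membrane domain that alternates between a state open to the cytosol and a state open to the matrix. Through them pass the ADP and phosphate that ATP synthase needs, the aspartate and glutamate of the shuttle that brings reducing power into the matrix, and the iron and glycine from which haem is made.

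The Me6TREN array detected 13656 probes (28.9%) and the control array 15363 (32.5%) at a detection p-value under 0.01, with a median of 22 beads behind a probe on both. The lowest detected signals were 350.5 on the Me6TREN array and 333.4 on the control array. Markers of the T lineage, from which Jurkat cells derive, were mostly dim: 2 of 11 (CD247 and CD28) were detected on both arrays, CD3E, CD5, CD7 and LCK on neither. CD3D was detected in the control only, with 250.3 on the Me6TREN array and 587.4 on the control array. CD3G and LAT were likewise detected in the control only, near the limit. CD2 (353.3 with Me6TREN and 295.9 in the control) and ZAP70 (374.3 and 321.4) were detected with Me6TREN only. Log2 ratios were −0.30 for CD247 and 0.91 for CD28, and the median over the measured T lineage markers was 0.0. The summed signal of the detected T lineage markers was 2879.6 with Me6TREN and 3592.4 in the control. Both arrays detected 5 of 6 B lineage markers (CD79A, CD79B, MS4A1, CD74 and BLK), with a summed signal of 136692.5 with Me6TREN and 137783.7 in the control, while PAX5 was not detected. These markers go against the labelled cell type on both arrays. Of the 6 myeloid markers 1 was detected on both arrays (CD68), as was 1 of the 4 erythroid markers with a probe (HBB). The summed signals of the detected members were 2044.7 with Me6TREN and 1886.2 in the control for the myeloid list, and 907.3 and 1174.1 for the erythroid list. The part of these cell types in the results was not tested, and in a whole culture fewer cells of a type and less RNA per cell cannot be told apart.

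At least 1 probe was detected on at least 1 array for 29 of the 48 genes (60.4%), against 46.9% of all named genes, and 26 of these were detected on both arrays. The brightest such probe stood for the gene. Its signal was corrected for background, quantile normalized and put on a log2 scale, and ratios are Me6TREN over control. The family held a few genes far from 0 in both directions: SLC25A22 and SLC25A44, which carry amino acids, were lowest, and SLC25A27 and SLC25A25 highest. At least 2-fold higher were 3 of 29 genes (10.3%), against 6.74% of the 9410 measured genes, and 3 were at least 2-fold lower (10.3%), against 9.94%. The higher genes include SLC25A27, which was detected with Me6TREN only and is counted through a bound. With genes detected on both arrays only, 2 of 26 members were higher (7.69%, against 6.85%) and 3 lower (11.5%, against 9.45%). These shares were near those of all genes. The median log2 ratio was −0.29 over the 29 members and −0.02 over all measured genes. As deposited, before any correction, the signal was lower on the Me6TREN array for 23 of the 29 members (79.3%) and for 78.7% of all measured genes.

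**Figure D1:**
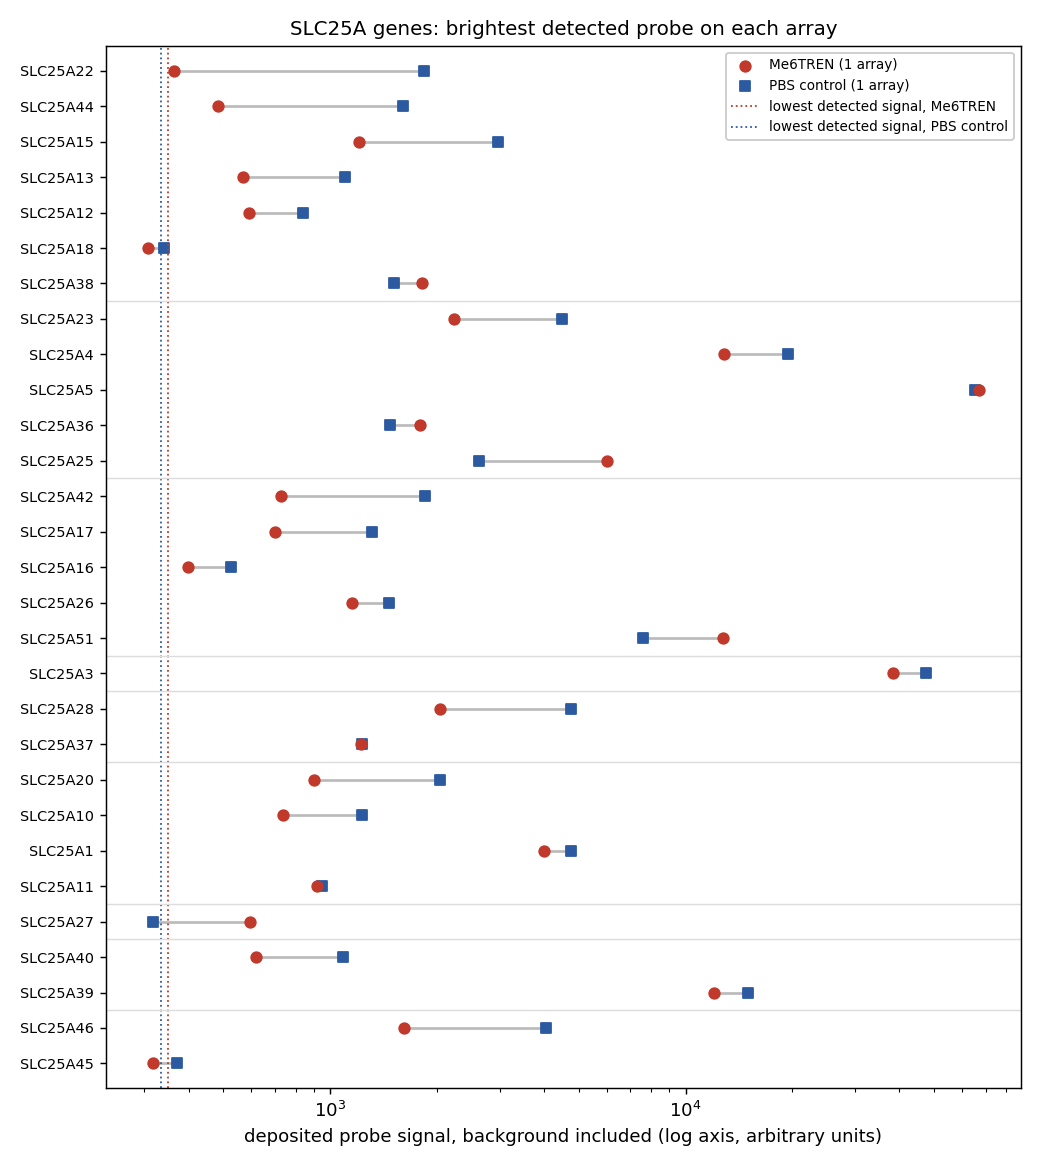
Deposited signal of the brightest detected probe of each of the 29 measured SLC25A genes on the Me6TREN array (red circles) and the PBS control array (blue squares), with background included, on a log axis. Grey lines separate the classes of substrate, and dotted lines mark the lowest detected signals (350.5 and 333.4). The signal was higher with Me6TREN for 6 genes.

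The split of the called members depended on the scaling of the arrays. Median centring over all probes in place of quantile normalization gave 2 members at least 2-fold higher (6.90%, against 2.45% of all measured genes) and 11 lower (37.9%, against 27.4%). SLC25A22, SLC25A42 and SLC25A44 were among the lower ones. The others were SLC25A13, SLC25A15, SLC25A17, SLC25A20, SLC25A23, SLC25A28, SLC25A40 and SLC25A46, with log2 ratios from −1.46 to −1.06. The authors' series matrix values gave 2 higher (6.90%, against 3.01%) and 10 lower (34.5%, against 24.8%). Both scalings move the all-gene median of the log2 ratios, to −0.51 and −0.43. Median centring over the probes detected on both arrays, an alternative chosen after the data were seen, gave 5 higher (17.2%, against 9.72% of all measured genes) and 3 lower (10.3%, against 8.37%), with 0.02 as the median of all genes. SLC25A22, SLC25A44, SLC25A25 and SLC25A27 were past 2-fold, with 1 sign each, under every alternative that gave them a value. Of the 27 members with a ratio other than 0, 20 kept their sign under all alternatives, and the 7 that did not (SLC25A1, SLC25A3, SLC25A4, SLC25A5, SLC25A11, SLC25A26 and SLC25A39) are marked where they are described.

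**Figure D2:**
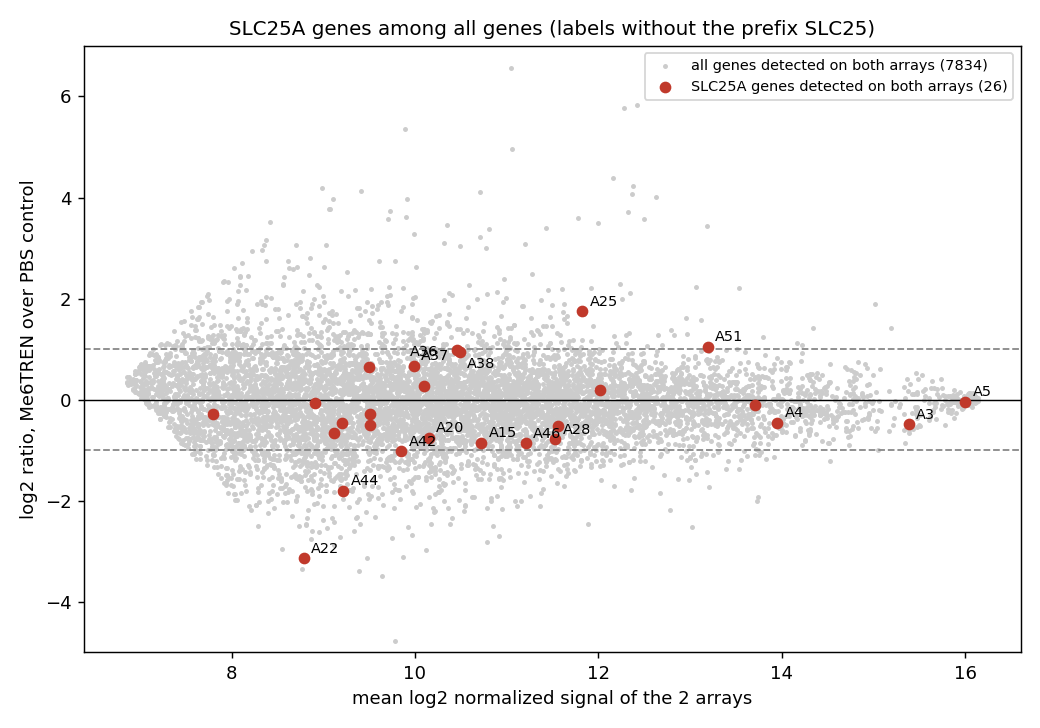
Log2 ratio of Me6TREN over PBS control against the mean log2 normalized signal of the 2 arrays, for 7834 genes detected on both arrays (grey) and the 26 SLC25A genes among them (red). The spread of all genes narrows from dim to bright signals. SLC25A22 and SLC25A44 lie below the dashed 2-fold line, SLC25A25 and SLC25A51 above it, and SLC25A42 on the lower one.

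Carriers of amino acids had a median log2 ratio of −0.67, and −1.37 to −0.46 over the alternatives. Of 9 genes with a probe, 7 were measured. None was at least 2-fold higher and 2 were at least 2-fold lower, against 6.74% and 9.94% of all measured genes. At 1.5-fold 1 was higher and 4 were lower. At 1.5-fold the whole family had 7 members higher (24.1%) and 8 lower (27.6%), against 16.5% and 21.9% of all measured genes.

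SLC25A22, which brings glutamate into the matrix together with a proton, had a signal of 362.5 on the Me6TREN array and 1839.3 on the control array. The Me6TREN value lay just above the lowest detected signal, the control value far above it. After background correction and normalization it was 8.80-fold lower with Me6TREN, a log2 ratio of −3.14. Without background correction the ratio was −2.02, and with the series matrix values −3.76, the ends of its range over the alternatives. Among the 941 measured genes of like mean signal, whose log2 ratios had a robust standard deviation of 0.90, 0.53% had a lower ratio. Its close relative SLC25A18, the other proton-coupled glutamate carrier, had a signal of 306.9 with Me6TREN, where it was not detected, and 341.2 in the control, near the limit, which allows no fold. The array therefore gave no usable ratio of the second glutamate carrier to set beside SLC25A22.

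SLC25A44, a carrier of branched-chain amino acids, had signals of 484.7 with Me6TREN and 1602.8 in the control. It was 3.48-fold lower (log2 ratio −1.80, −2.46 to −1.28 over the alternatives), and 2.98% of genes of like signal had a lower ratio. BCAT2, the mitochondrial transaminase of branched-chain amino acids, had a log2 ratio of −0.73 (−1.31 to −0.63 over the alternatives). Subunits of the dehydrogenase that acts after it had log2 ratios of −0.79 (BCKDHB, −1.49 to −0.55 over the alternatives) and 0.51 (BCKDHA, whose ratio ran from −0.08 to 0.60 over the alternatives).

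Both carriers that export aspartate in exchange for glutamate, the step that drives the malate-aspartate shuttle, had lower deposited signals with Me6TREN. The same held for 78.7% of all measured genes. SLC25A13 (citrin) had 570.0 with Me6TREN and 1097.6 in the control, and SLC25A12 (aralar) had 590.6 and 836.8. Normalized, the log2 ratio of SLC25A13 was −0.67 and that of SLC25A12 −0.07, a difference of −0.60 that ran from −0.61 to −0.42 over the alternatives. SLC25A15, which exchanges ornithine for citrulline in the urea cycle, had 1208.8 with Me6TREN and 2973.0 in the control by its brighter probe, a log2 ratio of −0.85. Its other probe, with 447.4 and 710.8, gave −0.53.

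SLC25A38 was the 1 measured amino acid carrier with a ratio above 0. It brings in glycine, the substrate of the first step of haem synthesis, and had 1811.9 with Me6TREN and 1513.7 in the control. Its log2 ratio was 0.94, and it was 0.33 with median centring over all probes and reached 2-fold with centring over the probes detected on both arrays. ALAS1, the enzyme that condenses this glycine in non-erythroid cells, had 525.1 with Me6TREN and 438.0 in the control and was 2.13-fold higher (log2 ratio 1.09, 0.45 to 1.13 over the alternatives). SLC25A2 and SLC25A29, carriers of ornithine and of other basic amino acids, were not detected.

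**Figure D3:**
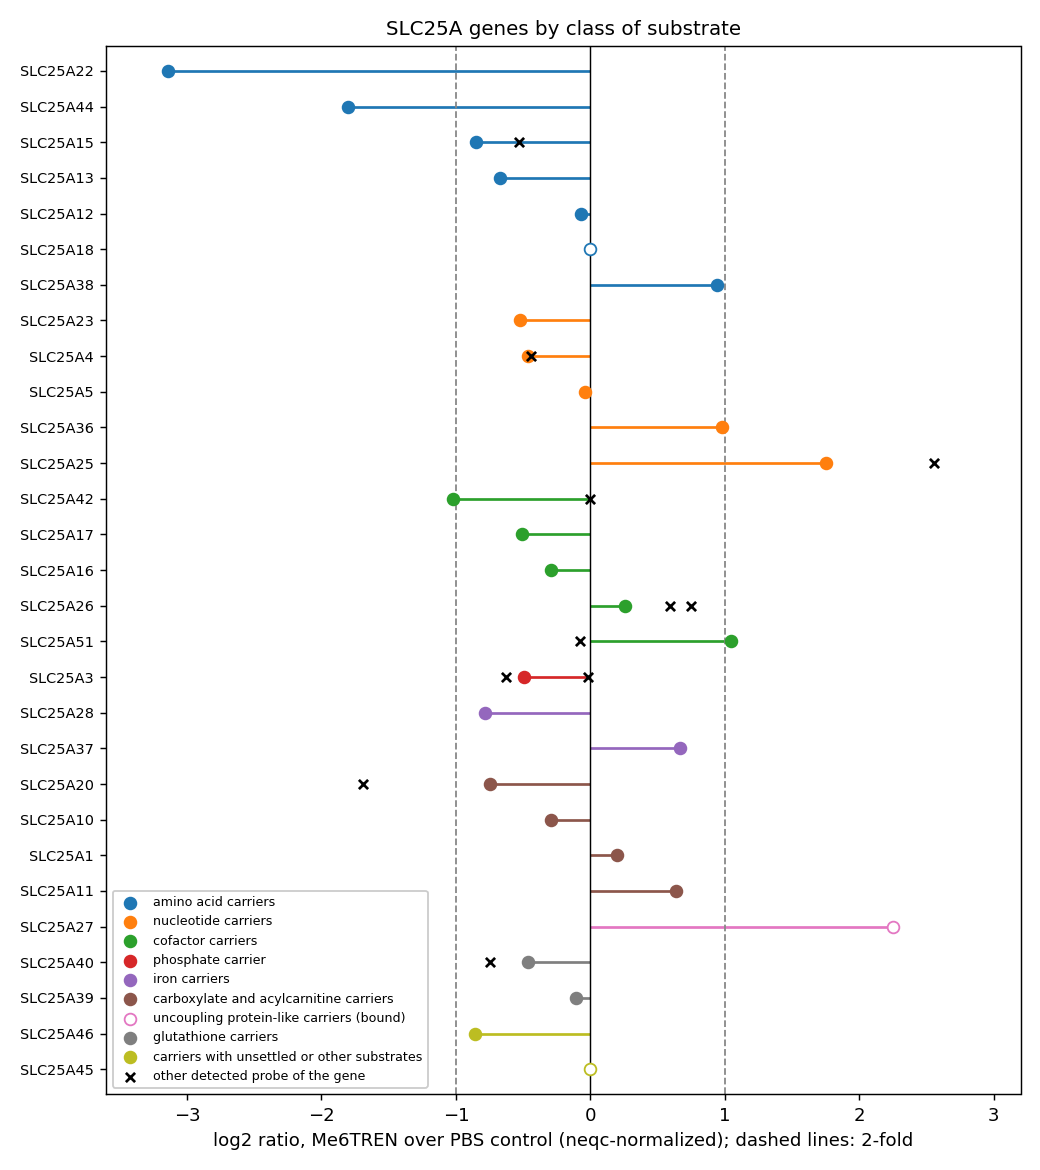
Log2 ratio of Me6TREN over PBS control for the 29 measured SLC25A genes, grouped and coloured by class of substrate. Filled circles are brightest probes detected on both arrays, open circles are bounds or, at 0, genes without a usable fold, crosses are other detected probes, and dashed lines mark 2-fold. Of the amino acid carriers at the top, SLC25A38 alone has a ratio above 0, and the 2 iron carriers lie on opposite sides of 0.

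Carriers of nucleotides had a median log2 ratio of −0.04, which turned to 0.08 and 0.76 with median centring over all probes and over those detected on both arrays, and to 0.19 with the series matrix values. In each of these cases the median is the ratio of 1 probe, that of SLC25A5, whose signal was near the top of the scale. Of 9 genes with a probe, 5 were measured, of which 1 was at least 2-fold higher and none at least 2-fold lower. Over all measured genes these shares were 6.74% and 9.94%. SLC25A24, SLC25A31, SLC25A33 and SLC25A41 were not detected.

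The higher one was SLC25A25, a carrier that exchanges ATP with magnesium for phosphate and is regulated by calcium. Its brightest probe had 6004.5 on the Me6TREN array and 2623.4 on the control array, and a second probe 696.2 and 337.9. The first was 3.37-fold higher (log2 ratio 1.75, 1.31 to 2.16 over the alternatives) and the second 5.90-fold higher, although its control signal lay close to the detection limit. Both are annotated to the same transcript, whereas 2 further probes, annotated to other transcripts of the gene, were not detected on either array. Among genes of like signal 98.4% had a ratio lower than that of the first probe. SLC25A23, another calcium-regulated carrier of this kind, had 2236.8 with Me6TREN and 4492.6 in the control, a log2 ratio of −0.52. SLC25A25 and SLC25A23 thus differed by 2.28 in log2 ratio, and by 2.13 to 2.68 over the alternatives.

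SLC25A36, which carries pyrimidine nucleotides used for mitochondrial DNA and RNA, had 1790.4 with Me6TREN and 1469.0 in the control. Its log2 ratio of 0.98 was just short of 2-fold and ran from 0.36 to 1.04. Of the ADP/ATP translocases, which hand the cell its ATP, SLC25A5 had 66971.1 with Me6TREN and 65082.9 in the control, near the top of the scale of both arrays (74593.7 and 73762.5). Its log2 ratio was −0.04 and turned to between 0.08 and 0.76 under 3 alternatives. SLC25A4 had 12814.1 with Me6TREN and 19384.8 in the control by its brighter probe and 4514.6 and 7944.8 by the other. The log2 ratios of these probes were −0.46 and −0.44, and the first turned to 0.11 with median centring over probes detected on both arrays. The translocases share much of their sequence, so the assignment of signal to 1 of them is uncertain.

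RefSeq promoters (build GRCh38.p14) were found for 27 of the 29 measured members, and the 250 bases before the start were searched on both strands for 5 motifs. Those of the 2 lowest members (SLC25A22, SLC25A44), of 2 nucleotide carriers (SLC25A25, SLC25A36) and of the NAD carrier SLC25A51 are shown because these genes had the 2 lowest ratios and, beside the bound of SLC25A27, the 3 highest. Capitals mark the cAMP response element TGACGTCA, the E-box CACGTG and the GC box GGGCGG, or their reverse complements.
SLC25A22 (chr11:798282-798531, minus strand): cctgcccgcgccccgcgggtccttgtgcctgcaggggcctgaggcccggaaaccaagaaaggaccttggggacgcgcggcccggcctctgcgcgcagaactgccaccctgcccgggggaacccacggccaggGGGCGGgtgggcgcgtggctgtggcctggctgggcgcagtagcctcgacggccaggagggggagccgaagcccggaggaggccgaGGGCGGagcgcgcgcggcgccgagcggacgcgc
SLC25A44 (chr1:156193854-156194103, plus strand): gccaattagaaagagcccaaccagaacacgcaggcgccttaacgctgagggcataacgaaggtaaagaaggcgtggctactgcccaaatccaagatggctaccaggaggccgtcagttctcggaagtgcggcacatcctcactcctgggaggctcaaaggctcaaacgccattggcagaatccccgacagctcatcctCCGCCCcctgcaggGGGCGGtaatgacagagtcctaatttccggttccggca
SLC25A25 (chr9:128098257-128098506, plus strand): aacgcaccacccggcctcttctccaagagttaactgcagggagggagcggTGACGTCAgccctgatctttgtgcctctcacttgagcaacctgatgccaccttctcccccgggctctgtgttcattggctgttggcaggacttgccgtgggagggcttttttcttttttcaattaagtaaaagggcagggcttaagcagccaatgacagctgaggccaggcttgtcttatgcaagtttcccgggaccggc
SLC25A36 (chr3:140941586-140941835, plus strand): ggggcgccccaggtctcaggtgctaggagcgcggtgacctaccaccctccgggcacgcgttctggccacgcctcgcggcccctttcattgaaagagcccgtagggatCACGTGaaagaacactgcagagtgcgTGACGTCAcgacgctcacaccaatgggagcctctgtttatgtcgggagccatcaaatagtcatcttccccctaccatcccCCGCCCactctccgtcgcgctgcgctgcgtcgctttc
SLC25A51 (chr9:37904128-37904377, minus strand): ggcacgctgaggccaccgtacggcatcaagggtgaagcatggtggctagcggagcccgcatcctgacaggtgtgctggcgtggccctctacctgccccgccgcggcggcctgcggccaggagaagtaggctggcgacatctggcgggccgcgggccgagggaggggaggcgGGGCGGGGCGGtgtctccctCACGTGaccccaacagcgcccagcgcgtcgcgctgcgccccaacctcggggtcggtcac

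TGACGTCA stood in 2 of the 27 member promoters, those of SLC25A25 and SLC25A36, and in 1.77% of 27305 promoters in all. These elements began 200 bases before the start of SLC25A25 and 117 before that of SLC25A36. CACGTG stood in 5 (SLC25A13, SLC25A36, SLC25A38, SLC25A46 and SLC25A51), whose log2 ratios ran from −0.86 to 1.05, and in 6.49% of all promoters. GGGCGG stood in 19 of the 27 and in 42.3% of all. The CCAAT box (CCAAT) stood in 12 and in 33.0% of all, and the promoter of SLC25A42 held 6 copies of it. The AP-1 letters TGANTCA were in none of these windows and in 6.60% of all. The 27 promoters are of measured genes, while the 27305 also include genes not measured here. The shares are therefore not of like sets, and an excess of a motif was not tested. A match describes the letters of this window and shows no binding, and RefSeq gives 1 start here for genes that can have several.

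Carriers of cofactors had 5 measured genes of 7 with a probe, with a median log2 ratio of −0.29. By 2-fold or more 1 was higher and 1 lower, against 6.74% and 9.94% of all measured genes. SLC25A51, which imports NAD into mitochondria, had 12734.7 with Me6TREN and 7590.3 in the control, and was 2.07-fold higher (log2 ratio 1.05). A second probe of the gene, with 337.1 and 384.3 and detected in the control only, gave a log2 bound of −0.08. The call at 2-fold was lost with median centring over all probes (0.80), the series matrix values (0.91) and the mean of its probes (0.48). Its near copy SLC25A52 was not detected, and the assignment between these copies is uncertain.

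SLC25A42, which carries coenzyme A and adenine nucleotides, had 727.4 with Me6TREN and 1844.8 in the control. It was 2.03-fold lower (log2 ratio −1.02), but a second probe, detected in the control only with 340.3, allowed no fold, and 12.0% of genes of like signal had a lower ratio. Its call was lost without background correction (−0.82), with normexp (−0.90), with an offset of 50 (−0.99) and with the mean of its probes (−0.51). SLC25A17, a carrier of the peroxisome membrane, had 699.5 with Me6TREN and 1310.6 in the control, a log2 ratio of −0.51. SLC25A16 had 398.7 with Me6TREN and 525.9 in the control, both near the detection limit, and a log2 ratio of −0.29. SLC25A26, which imports the methyl donor S-adenosylmethionine, had 1155.0 with Me6TREN and 1468.0 in the control by its brightest probe, 1132.7 and 1092.6 by the second and 418.6 and 404.8 by the third. Their log2 ratios were 0.26, 0.75 and 0.59, and the first turned to −0.40 with median centring over all probes and to −0.30 with the series matrix values. The folate carrier SLC25A32 was not detected.

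The phosphate carrier SLC25A3, which supplies ATP synthase with phosphate, had the signals 38305.6 with Me6TREN and 47665.2 in the control by its brightest probe, and 20358.9 and 31373.2 by the second. The third probe had 502.7 and 658.7. The log2 ratios were −0.49, −0.63 and −0.02, so that all 3 lay within 2-fold. That of the brightest turned to 0.40 with median centring over probes detected on both arrays. At such bright signals the robust standard deviation of all genes was 0.38.

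The carriers of iron had log2 ratios of opposite sign. Mitoferrin 2 (SLC25A28), the form of most tissues, had 2035.2 on the Me6TREN array and 4758.2 on the control array, a log2 ratio of −0.78. Mitoferrin 1 (SLC25A37), known for feeding haem synthesis in red cell precursors, had 1223.8 and 1226.1, deposited signals that were nearly equal, and a normalized log2 ratio of 0.67 (0.01 with median centring over all probes). Neither passed 2-fold as normalized here, and SLC25A28 did so (−1.30) at the low end of its range over the alternatives. The difference between them, −1.45 in log2 ratio, ran from −1.45 to −1.27 over the alternatives.

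Of 4 measured genes that use iron in the matrix or act beside mitoferrin 1, 2 were at least 2-fold lower and none higher. Over all measured genes 9.94% were lower and 6.74% higher by this call. NFS1, the desulfurase that supplies sulfur for iron-sulfur clusters, had 332.9 with Me6TREN, where it was not detected, and 844.3 in the control, and was at least 3.83-fold lower as normalized here, a log2 bound of −1.94 that ran from −2.53 to −1.01 over the alternatives. ABCB10, a transporter that stabilises mitoferrin 1, had 623.5 with Me6TREN and 1814.7 in the control and was 2.53-fold lower (log2 ratio −1.34, −2.01 to −1.04 over the alternatives). The log2 ratio of FECH, which inserts iron into haem, was −0.24 and that of the cluster scaffold ISCU 0.12, which ran from −0.11 to 0.57 over the alternatives.

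Of the carriers of carboxylates and acylcarnitine 4 of 5 were measured and none passed 2-fold by its brightest probe as normalized here. SLC25A20, which exchanges acylcarnitine for carnitine in fatty acid import, had 902.5 with Me6TREN and 2032.9 in the control. Its log2 ratio was −0.75, and −1.41 to −0.63 over the alternatives. Its second probe, with 414.9 and 1123.9, was 3.22-fold lower, so the probes shared a direction but not a size. The dicarboxylate carrier SLC25A10 had 737.2 with Me6TREN and 1230.7 in the control, a log2 ratio of −0.29. The citrate carrier SLC25A1, which exports the citrate used for fatty acid synthesis, had 3988.5 with Me6TREN and 4755.4 in the control. Its log2 ratio was 0.20, which turned to −0.23 with median centring over all probes and −0.13 with the series matrix values. The oxoglutarate carrier SLC25A11, the partner of the aspartate carriers in the malate-aspartate shuttle, had 918.7 with Me6TREN and 946.4 in the control. Its log2 ratio was 0.64, which turned to −0.05 with median centring over all probes. SLC25A21 was not detected.

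SLC25A27, an uncoupling protein-like carrier known mainly from the brain, had 596.3 on the Me6TREN array and 316.4 on the control array, where it was not detected. It was at least 4.76-fold higher with Me6TREN as normalized here, a log2 bound of 2.25. Over the alternatives the value ran from 1.10, without background correction, to 2.44. The latter came with a detection p-value under 0.05 or no filter, where the value is not a bound. The number of beads behind the SLC25A27 probe was 18 with Me6TREN and 39 in the control. SLC25A30, of the same class, was not detected. The glutathione carriers are a pair of relatives that bring this antioxidant into the matrix. SLC25A39 had 12032.3 with Me6TREN and 15016.6 in the control, a log2 ratio of −0.11 (0.39 with median centring over probes detected on both arrays). SLC25A40 had 618.4 with Me6TREN and 1089.7 in the control by one probe, a log2 ratio of −0.46, and 430.6 and 742.1 by another, a log2 ratio of −0.75.

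Among carriers with other or unsettled substrates, SLC25A46, an outer membrane protein that acts in mitochondrial shape, had 1611.6 with Me6TREN and 4038.3 in the control, a log2 ratio of −0.86. SLC25A45 had 318.0 with Me6TREN, where it was not detected, and 369.4 in the control, near the limit, and allowed no fold. SLC25A34, SLC25A35, SLC25A43, SLC25A47, SLC25A48 and SLC25A53 were not detected, nor were the 3 pseudogene and antisense symbols. The 19 genes without a detected probe had signals from 167.2 to 312.8 over their 26 probes, below the detection limits, so a difference in them could not be seen. SLC25A6 and SLC25A14 had no probe named for them and were not analysed here.

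For 7 genes, 2 or 3 probes were detected on both arrays (SLC25A3, SLC25A4, SLC25A15, SLC25A20, SLC25A25, SLC25A26 and SLC25A40), and within each of the 7 the normalized ratios shared a sign. SLC25A42 and SLC25A51 each had a second probe with detection in the control alone, and it did not share the call of the first.

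**Figure D4:**
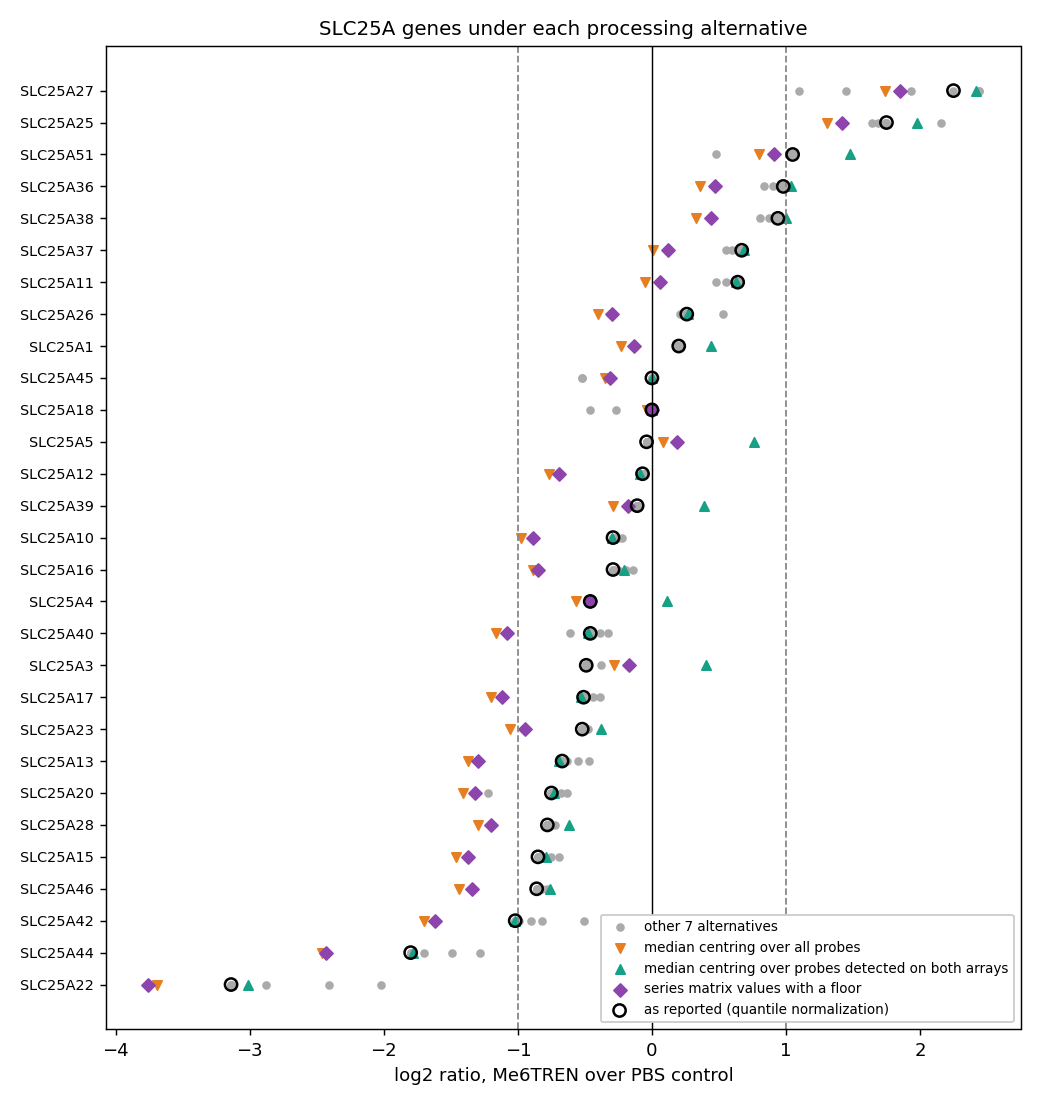
Log2 ratio of Me6TREN over PBS control of the 29 measured SLC25A genes as reported (open black circles) and under 10 processing alternatives, with dashed lines at 2-fold. Median centring over all probes and the series matrix values shift most members to the left, and centring over probes detected on both arrays shifts the brightest members (SLC25A3, SLC25A4, SLC25A5 and SLC25A39) to the right of 0. SLC25A22, SLC25A44, SLC25A25 and SLC25A27 stay past 2-fold under each alternative that gave them a value.

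Genes around the carriers lay mostly within 2-fold as normalized here, as did most measured genes. Over all measured genes 6.74% were at least 2-fold higher and 9.94% lower. Of 12 measured genes for the import of carrier proteins, 1 was at least 2-fold lower and none higher (median log2 ratio −0.15): TOMM40, the channel of the outer membrane, had 8988.6 with Me6TREN and 20613.1 in the control (2.06-fold lower, log2 ratio −1.05, −1.18 to −0.50 over the alternatives). TIMM22, the channel that inserts carriers into the inner membrane, had a log2 ratio of −0.23. Of 11 other measured mitochondrial metabolite transporters none passed 2-fold in either direction as normalized here (median −0.25), although MPC2, MTCH2 and SFXN1 did so at the far ends of their ranges over the alternatives (1.39, −1.04 and −1.03). The subunits of the pyruvate carrier had log2 ratios of opposite sign, 0.96 for MPC2 (0.71 to 1.39 over the alternatives) and −0.51 for MPC1 (−0.85 to −0.17). Of 13 measured enzymes that use the carried amino acids, ALAS1 was the 1 past 2-fold (median −0.14), and GLUD1, which oxidises the glutamate that SLC25A22 imports, had a log2 ratio of 0.17, which ran from −0.09 to 0.59 over the alternatives.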

How the data were processed

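RNA of 1 culture with Me6TREN and 1 with PBS was hybridised to Illumina HT12 arrays. The authors deposited, per the file headers, a non-normalized table with, for each probe, the mean signal of its beads (linear intensity, background included), a detection p-value and the bead number. The detection columns carry the same name and were assigned through their monotone relation to the signal beside them. A series matrix deposited by the authors holds processed intensities, each column a linear function of that array's signal (residuals of at most 0.0131). For both tables the software is not given in the sources used here.

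The function neqc of limma 3.58.1 in R 4.3.3 corrected and normalized the signals, inferring the negative controls from detection p-values, with an offset of 16 and quantile normalization, on a log2 scale. Quantile normalization gives both arrays 1 distribution and removes any array-wide difference. Probes were named by the platform annotation of GEO: 30113 had 1 symbol, 8 several and 17209 none of their own. Through Entrez IDs, 30074 matched the RefSeq table of GRCh38.p14, and no symbol changed. A gene was its brightest probe detected (p under 0.01) on at least 1 array. Where it was detected on 1 array, the other array's value was set to its lowest detected signal, or to the probe's own signal if higher, and the ratio is a bound, with no fold given, and 0 in medians, where that is under 1. Genes of like signal are those of 1 of 10 equal bins of mean log2 signal, and the robust standard deviation is the scaled median absolute deviation. No test was made with 1 array per group. The call is 2-fold, and the number of arrays limits the precision. Alternatives in background correction, scaling, detection filter and probe choice were also run. The steps were tested on simulated arrays of equal background, with known ratios set only in probes well above the detection limit in the control. Ratios of genes that are dim in the control were not covered by this test. Every measured SLC25A gene is named, and of each list of related genes the members past 2-fold, with others named after their values were seen. The members and lists were chosen with earlier results of these data known.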

Additional observations from a re-analysis of the deposited data

How the results depend on the processing

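No paired analysis was possible because each group has 1 sample, and for the same reason no replicate could be left out. As reported, 3 SLC25A genes were at least 2-fold higher (10.3%, against 6.74% of all measured genes) and 3 lower (10.3%, against 9.94%). The median log2 ratio was −0.29 over the family, −0.67 over amino acid carriers and −0.04 over nucleotide carriers. Without background correction the family median was −0.14 and that of amino acid carriers −0.47. With normexp over all probes the amino acid median was −0.55, and with no filter on detection −0.46. Median centring over all probes gave 11 genes lower (37.9%, against 27.4% of all measured genes) and medians of −0.57 (family), −1.37 (amino acids) and 0.08 (nucleotides). The series matrix values gave 10 genes lower (34.5%, against 24.8%) and medians of −0.46, −1.30 and 0.19. Median centring over probes detected on both arrays gave 5 genes higher (17.2%, against 9.72%), a family median of 0.00 and a nucleotide median of 0.76. At 1.5-fold 7 genes were higher (24.1%, against 16.5%) and 8 lower (27.6%, against 21.9%). The other counts of called genes stayed within 1.5 times the reported count and the other medians within 0.1, a tolerance set by hand as no replicate spread exists. Single genes kept their side of 2-fold and their sign in 251 of their values under the alternatives, lost the call in 7, gained it in 18 and changed sign without a call in 11. The 251 include the values of SLC25A18 and SLC25A45, whose reported ratio of 0 has no sign to keep. The causes of the differences between scalings were not tested. Dim genes are limited by background: the robust standard deviation was 0.89 in bin 2 and 0.99 in bin 3 of the 10 bins of rising signal, and 0.38 in the brightest. It was 0 in the dimmest bin, which holds SLC25A18 and SLC25A45, since genes without a usable fold are entered there as 0.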
